A study of Rattus norvegicus with 6 samples.

Results

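The ABC and MATE xenobiotic efflux pumps are described here as 10 genes, Abcb1a, Abcb1b, Abcc1, Abcc2, Abcc3, Abcc4, Abcc5, Abcc6, Abcg2 and Slc47a1, which were chosen by name as drug efflux transporters and found on the array through the transcript accession of each probe. All 10 had a probe. They took 23 of the 61657 non-control probes and 10 of the 32663 gene entries that were tested. The tissue was kidney cortex from Sprague-Dawley males, bought at 5 weeks of age and all kept on the same basal diet. Anthraquinone, a tricyclic quinone, was dosed at 1000 mg/kg/day over 4 weeks in 3 animals, and the other 3 received corn oil, the vehicle, over the same period. Each animal had its own 1-colour array, so each value below is 1 animal.

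Efflux pumps move drugs, conjugates and toxicants out of cells. ABC pumps spend ATP to do so, whereas the MATE carrier encoded by Slc47a1 exchanges organic cations for protons. In the proximal tubule, P-glycoprotein (encoded in rodents by the paralogs Abcb1a and Abcb1b), Mrp2 (Abcc2), Mrp4 (Abcc4), Bcrp (Abcg2) and Mate1 (Slc47a1) sit on the brush border and face the urine. Mrp1, Mrp3, Mrp5 and Mrp6 (Abcc1, Abcc3, Abcc5 and Abcc6) are mostly placed on the basolateral side and face the blood. Several of these genes are known targets of the oxidant-sensing factor Nrf2 and of the xenobiotic receptors CAR and PXR.

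Values are processed Cy3 intensities on the log2 scale minus the 75th percentile of the array, so that 0 is a probe as bright as that percentile. The percentile was 844 to 880 in anthraquinone animals and 903 to 1191 in corn oil animals, and 64.2 to 66.1% of spots were well above background in anthraquinone animals against 68.7 to 70.7% in corn oil animals. The array of corn oil replicate 1 was on a slide of its own, and the other 5 shared a slide. On the shared slide the 3 anthraquinone arrays were in row 2 and the corn oil arrays in row 1. Row and group cannot be told apart there, also with the slide as a block. All 12 proximal tubule markers (such as Slc34a1, Lrp2 and Slc5a2) were measured, with a mean normalized log2 level of 6.18 to 6.39 over the list in anthraquinone animals and 6.33 to 6.39 in corn oil animals. The 12 markers had a median log2 change of 0.07, with 8 above 0 and 4 below it. At an unadjusted limma p under 0.05, 1 was higher (Slc5a12, 0.49 ± 0.19, SE, with overlap) and 0 were lower. Over all entries 9.47% were higher and 7.65% lower at that level, which stands beside the marker counts below too. Among the 12, Slc7a13 differed by -1.16 ± 0.51 on the log2 scale (SE, limma adjusted p = 0.311), with overlap. The 5 tested markers of thick ascending limb and distal tubule all had log2 changes under 0 (median -0.38), and 1 of them was lower at an unadjusted limma p under 0.05. Of 6 collecting duct markers (median -0.27), 2 were higher and 2 lower at that level, and no marker of these 3 lists passed the test over all entries. Of 5 red cell markers, 4 had a probe and all 4 were higher with anthraquinone at an unadjusted limma p under 0.05. Their median log2 change was 0.71, and their summed normalized intensity was 1069 to 1487 in anthraquinone animals against 682 to 915 in corn oil animals, and none was at 0. The part of these other cell types in the pump values was not tested. In whole cortex, fewer cells of a type and less RNA per cell cannot be told apart.

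On the brightest probe of each gene, Abcc2, Abcc4 and Abcb1b were higher in every anthraquinone animal than in any corn oil animal, Abcb1a and Abcc6 were lower in every anthraquinone animal, and the groups overlapped for Abcc1, Abcc3, Abcc5, Abcg2 and Slc47a1. Abcb1a differs from the other 9 in that it met the filter on dim probes through the corn oil arrays alone, the group where it reads higher, so its place among the lower genes is partly set by that filter. None of the 10 passed limma's test over all 32663 entries, where the smallest limma adjusted p of the 10 was 0.182 and 9 entries in all (0.0276%) passed. At an unadjusted limma p under 0.05, 3 of the 10 were higher and 2 lower, against 9.47% higher and 7.65% lower over all entries. The lower count was 1 (Abcc6) where all arrays had to be well above background, which leaves Abcb1a out, and also 1 with the normexp background correction. The same 3 and 2 were the ones whose groups did not overlap, which held for 15.0% (higher) and 10.2% (lower) of all entries. The median log2 change was 0.08 over the 10 pumps and 0.01 over all entries. By probe, 0 of 23 passed (0.0339% of all 41310 probes did), and 7 were higher and 2 lower at an unadjusted limma p under 0.05, against 9.22 and 8.15% of all probes. The same 7 and 2 probes had groups without overlap, against 14.5 and 10.7% of all probes. Of the 2 lower probes 1 is that of Abcb1a, so its place in these counts too is partly set by the filter. Probes of 1 gene share a target and are not replicates of each other.

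**Figure D1:**
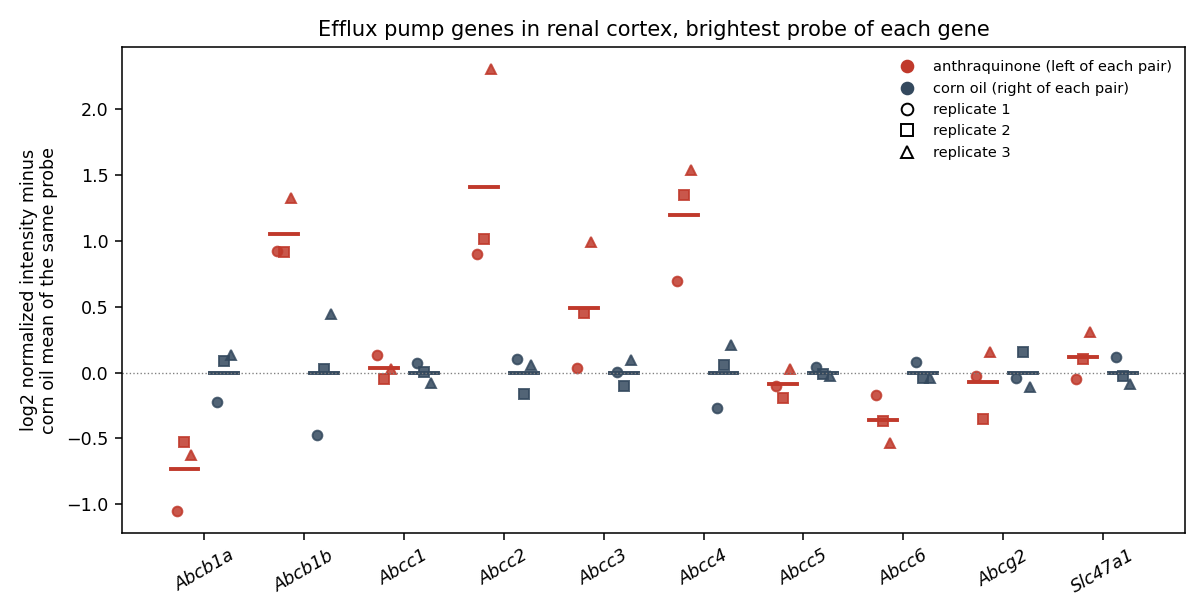
Each point is 1 animal's log2 normalized intensity on the brightest probe of a gene, minus the corn oil mean of that probe, with anthraquinone left and corn oil right in each pair; horizontal bars are group means (n = 3 each) and marker shapes are replicate numbers. Abcc2, Abcc4 and Abcb1b lie above their corn oil points and Abcb1a and Abcc6 below them. The Abcb1a probe met the filter on dim probes through the corn oil arrays alone, so its points are only a description. Anthraquinone replicate 3 is the highest point for Abcc2, at 4.43 on the normalized scale before the corn oil mean is taken off.

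Promoter windows of 300 bases, from 250 before to 50 after a transcription start, were taken from RefSeq (GRCr8) for 7 of the 10 pumps (all but Abcc3, Abcc5 and Slc47a1), and those of the paralogs and of Abcc2 and Abcc4, which had the largest log2 changes on the brightest probe of each gene, are shown 5′ to 3′. Capitals mark matches, on either strand, to the antioxidant response element core TGACNNNGC, the xenobiotic response element core GCGTG, the GC box GGGCGG, the CCAAT box CCAAT and the TATA box TATAAA.
Abcb1a, chr4:26397599-26397898, minus strand: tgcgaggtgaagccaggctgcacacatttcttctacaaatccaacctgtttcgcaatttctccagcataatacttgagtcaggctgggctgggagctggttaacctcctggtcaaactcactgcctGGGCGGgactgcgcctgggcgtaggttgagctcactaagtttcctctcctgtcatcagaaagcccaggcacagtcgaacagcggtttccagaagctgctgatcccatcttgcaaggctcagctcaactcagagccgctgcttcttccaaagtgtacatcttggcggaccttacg
Abcb1b, chr4:26279980-26280279, minus strand: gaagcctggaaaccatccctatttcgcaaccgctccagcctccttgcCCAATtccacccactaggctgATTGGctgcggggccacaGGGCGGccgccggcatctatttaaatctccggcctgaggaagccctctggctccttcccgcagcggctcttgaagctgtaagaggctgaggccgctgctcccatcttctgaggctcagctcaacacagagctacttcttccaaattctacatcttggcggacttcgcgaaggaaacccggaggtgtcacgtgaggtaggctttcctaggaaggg
Abcc2, chr1:252613625-252613924, plus strand: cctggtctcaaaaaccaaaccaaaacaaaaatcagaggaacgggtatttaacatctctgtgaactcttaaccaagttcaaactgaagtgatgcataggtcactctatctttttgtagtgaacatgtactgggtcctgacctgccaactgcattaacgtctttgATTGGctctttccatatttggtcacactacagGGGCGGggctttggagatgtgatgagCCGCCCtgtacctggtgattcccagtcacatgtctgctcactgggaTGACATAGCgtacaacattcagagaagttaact
Abcc4, chr15:102181315-102181614, minus strand: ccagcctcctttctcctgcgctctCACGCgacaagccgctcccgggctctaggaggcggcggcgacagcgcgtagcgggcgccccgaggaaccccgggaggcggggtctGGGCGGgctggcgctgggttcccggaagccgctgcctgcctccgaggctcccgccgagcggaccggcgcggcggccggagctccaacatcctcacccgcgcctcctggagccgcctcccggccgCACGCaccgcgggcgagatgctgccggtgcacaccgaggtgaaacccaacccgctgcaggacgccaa
In these windows the paralogs shared a GC box, 124 bases before the start in Abcb1a and 164 before it in Abcb1b. The Abcb1b window also held 2 CCAAT boxes, 1 on each strand, 203 and 182 bases before the start, and the Abcb1a window held none. The Abcb1a start used by the table lies 90808 bases inside the outer end of the gene, and its other starts were not looked at. The Abcc2 window held the antioxidant response element core once, as TGACATAGC, from base 18 after the start, with a CCAAT box and 2 GC boxes. The Abcc4 window held the xenobiotic response element core 2 times and a GC box once, and its start lies 1548 bases inside the outer end of the gene. Over the 7 windows, 1 held the antioxidant core (Abcc2), 3 the xenobiotic core, 7 a GC box, 3 a CCAAT box and 0 a TATA box. Over all 33469 windows of the table the shares were 12.1, 29.7, 33.1, 37.5 and 14.2%. None of these motifs overlapped another within the 4 windows shown. The matches are letters in a window and say nothing of binding.

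Mrp2, the product of Abcc2, exports glutathione, glucuronide and sulfate conjugates into urine and bile. Its single probe had normalized log2 values of 3.03, 3.15 and 4.43 in anthraquinone replicates 1, 2 and 3, against 2.23, 1.97 and 2.19 in corn oil replicates 1, 2 and 3. The groups did not overlap, and anthraquinone replicate 3 stood above the other anthraquinone animals, which lay close together. The mean was 3.54 ± 0.78 with anthraquinone and 2.13 ± 0.14 with corn oil (SD, n = 3 each), a 2.65-fold higher mean that did not pass (log2 change 1.40 ± 0.37, SE, limma adjusted p = 0.201). Without anthraquinone replicate 3 the log2 change was 0.96, and with the slide as a block, which leaves 3 anthraquinone and 2 corn oil arrays, it was 1.45.

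Mrp4, the product of Abcc4, exports cyclic nucleotides, urate and organic anions, and 4 probes read its transcript. The brightest, A_64_P057340, had values of 3.15, 3.80 and 3.99 in anthraquinone replicates 1, 2 and 3, against 2.19, 2.51 and 2.66 in corn oil replicates 1, 2 and 3. Every anthraquinone animal lay above every corn oil animal, as on the other 3 probes. The fold was 2.28 (log2 change 1.19 ± 0.24, SE, n = 3 each, limma adjusted p = 0.182), the smallest adjusted p among the pumps. A_64_P093599 had values of 1.85, 2.46 and 2.69 with anthraquinone and 0.97, 1.33 and 1.58 with corn oil, a log2 change of 1.04 ± 0.25 (SE). A_44_P257526 had 0.90, 1.55 and 1.77 with anthraquinone and 0.00, 0.47 and 0.63 with corn oil (1.04 ± 0.27). The dimmest probe, A_44_P344679, had -0.51, -0.35 and -0.03 with anthraquinone and -1.65, -1.53 and -1.04 with corn oil (1.11 ± 0.20). The 4 probes therefore gave log2 changes within 1.04 to 1.19, none past the threshold over all probes (the lowest limma adjusted p was 0.150). With the slide as a block the brightest probe gave 1.06. It passed under 1 setting, without the filter on dim probes (limma adjusted p = 0.0316), where 6611 entries passed in all.

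The other brush border pumps with bright probes overlapped between groups. Abcg2 encodes Bcrp, which exports urate, sulfate conjugates and many planar drugs. Its brighter probe had values of 3.91, 3.59 and 4.09 in anthraquinone replicates 1, 2 and 3, against 3.89, 4.09 and 3.82 in corn oil replicates 1, 2 and 3. The log2 change was -0.07 (95% confidence interval -0.44 to 0.29), and the second probe gave -0.13 ± 0.14 (SE). The sign of the brighter probe turned, to 0.06 without anthraquinone replicate 2, the lowest animal, and to 0.0038 without corn oil replicate 2, the highest. Mate1, the product of Slc47a1, secretes organic cations such as metformin and creatinine. It had values of 3.97, 4.12 and 4.33 with anthraquinone, against 4.14, 3.99 and 3.93 with corn oil, a log2 change of 0.12 (95% confidence interval -0.16 to 0.40). Its second probe gave 0.06 ± 0.10 (SE), and -0.02 after quantile normalization. Neither gene passed the test, and the intervals leave room for changes of up to 0.44 (Abcg2, downward) and 0.40 (Slc47a1, upward) on the log2 scale.

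The paralogs Abcb1a and Abcb1b lie side by side with Abcb4 on rat chromosome 4, where no other protein-coding gene stands between the 3 in the RefSeq table of assembly GRCr8. Both encode P-glycoprotein, the pump for large hydrophobic drugs, and the array read them with 1 and 3 probes. Abcb1a had normalized log2 values of -5.60, -5.07 and -5.17 in anthraquinone replicates 1, 2 and 3, against -4.78, -4.46 and -4.41 in corn oil replicates 1, 2 and 3. All anthraquinone animals lay below all corn oil animals. The means differed by -0.73 on the log2 scale. This is given as a description, with no fold and no test beyond the counts above. The reason is that the probe was dim and met the filter through the corn oil arrays alone. Its readings before scaling show the limit. The processed intensity was 18.2, 25.7 and 23.4 in anthraquinone replicates 1, 2 and 3, against 43.5, 41.1 and 44.8 in corn oil replicates 1, 2 and 3. The lowest intensity that the scanner software called well above background was 21.6, 23.0 and 18.7 on the same anthraquinone arrays and 21.2, 13.8 and 14.9 on the corn oil arrays. Anthraquinone replicate 1 thus fell under that limit, and the probe was well above background on 2 of 3 anthraquinone arrays and on 3 of 3 corn oil arrays. The unprocessed median of the spot was 59.5, 67 and 63 with anthraquinone, against 85, 84 and 85 with corn oil, beside a local background of 60, 52 and 39 with anthraquinone and 44, 56 and 56 with corn oil. With the normexp background correction (offset 50) the log2 change was -0.12. With the slide as a block it was -0.85, and without anthraquinone replicate 1 it was -0.57. Endothelial cells also carry Abcb1a. Of 12 endothelial markers 10 were tested, 0 were at an unadjusted limma p under 0.05, and their mean normalized log2 level was 0.52 to 0.66 in anthraquinone animals and 0.47 to 0.70 in corn oil animals.

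Abcb1b was higher with anthraquinone on each of its probes, by amounts that differed between probes. The brightest, A_64_P010925, had values of -0.13, -0.13 and 0.27 in anthraquinone replicates 1, 2 and 3, against -1.52, -1.02 and -0.61 in corn oil replicates 1, 2 and 3. This was a 2.08-fold higher mean without overlap (log2 change 1.05 ± 0.25, SE, limma adjusted p = 0.191). Probe A_64_P039888 had values of -0.26, -0.38 and 0.47 with anthraquinone, against -3.94, -2.18 and -2.27 with corn oil. Its log2 change of 2.74 ± 0.51 (SE, limma adjusted p = 0.156) was the largest of the 23 pump probes. The intensities behind it were 733, 667 and 1165 with anthraquinone and 77.8, 199.9 and 198.1 with corn oil. Without the filter on dim probes this probe passed (limma adjusted p = 0.0214), but 6611 gene entries passed there, against 9 with the filter. The dimmest probe, A_44_P141897, had values of -3.51, -3.82 and -3.02 with anthraquinone, against -4.94, -3.96 and -3.70 with corn oil, and its groups overlapped (0.75 ± 0.36, SE, limma adjusted p = 0.346). Corn oil replicate 1, the array on a slide of its own, was the lowest animal on all 3 probes. With the slide as a block the 3 log2 changes were 0.82, 2.17 and 0.38.

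**Figure D2:**
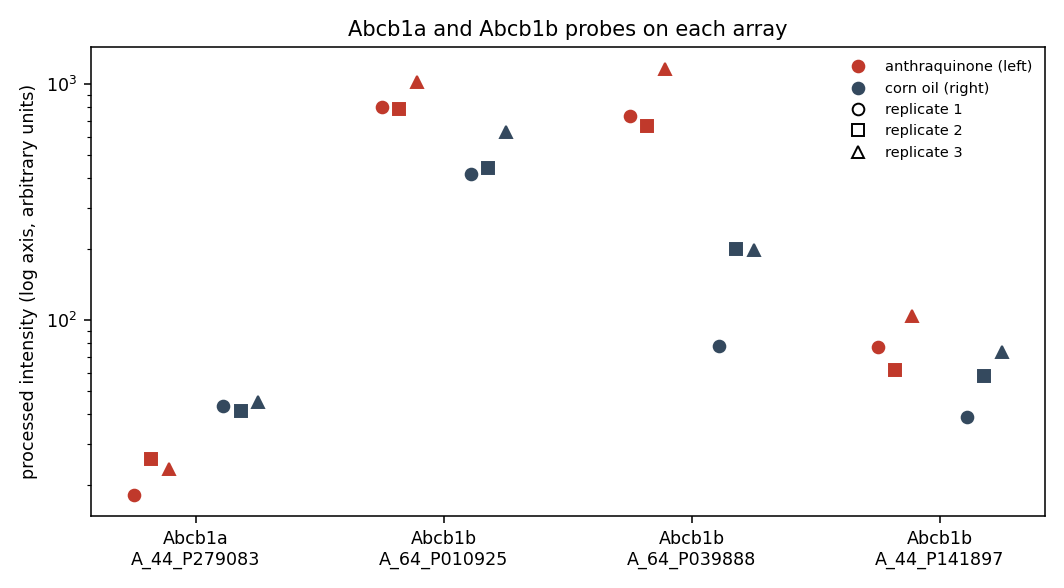
Processed intensity before scaling between arrays, on a log axis, for the Abcb1a probe and the 3 Abcb1b probes; each point is 1 array, anthraquinone left and corn oil right, with marker shapes for replicate numbers. Abcb1a sits at 18.2 to 25.7 with anthraquinone and 41.1 to 44.8 with corn oil, and Abcb1b probe A_64_P039888 at 667 to 1165 with anthraquinone and 77.8 to 199.9 with corn oil.

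The paralogs were then compared by their change, as the Abcb1a value minus the Abcb1b value within each animal, which cancels any scaling of the array. With the brightest Abcb1b probe this difference was -5.47, -4.94 and -5.45 in anthraquinone replicates 1, 2 and 3, against -3.26, -3.43 and -3.81 in corn oil replicates 1, 2 and 3. The Abcb1a and Abcb1b differences were thus -1.79 apart on the log2 scale in these readings. Against the other 2 Abcb1b probes the difference of changes was -3.47 and -1.48. In all 3 probe pairs the anthraquinone and corn oil animals did not overlap. For probes A_64_P010925 and A_64_P039888 this had to be so. Each of them and Abcb1a already lacked overlap, in opposite directions. All 3 pairs reuse the dim Abcb1a probe, so they are descriptions, and an exact permutation test of 3 against 3 animals could not go below 0.1. With the normexp correction the first difference was -1.08, of which Abcb1a gave -0.12, and with the mean of the Abcb1b probes it was -2.25. Abcb4, the third gene of this cluster, which encodes a phospholipid translocator of bile, was read by 1 dim probe (well above background on 2 of 3 anthraquinone and 3 of 3 corn oil arrays) with values of -5.39, -4.78 and -5.13 with anthraquinone and -4.63, -4.99 and -4.90 with corn oil. Its groups overlapped, with a log2 change of -0.26. This too is only a description, since the Abcb4 probe met the filter through the corn oil arrays alone.

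Among the basolateral pumps, the widest difference in size was that of Mrp3 (Abcc3), which returns glucuronide conjugates to the blood. Its brightest probe had values of -1.61, -1.19 and -0.66 in anthraquinone replicates 1, 2 and 3, against -1.64, -1.74 and -1.55 in corn oil replicates 1, 2 and 3. Anthraquinone replicates 2 and 3 lay above all corn oil animals, and replicate 1 lay among them. The log2 change was 0.49 ± 0.24 (SE, n = 3 each, limma adjusted p = 0.346), and the other 2 probes gave 0.36 ± 0.25 and 0.29 ± 0.18. Without anthraquinone replicate 1 it was 0.72, and without anthraquinone replicate 3 it was 0.24. Abcc6 encodes Mrp6, whose loss causes ectopic mineralisation. Its single probe had 1.09, 0.89 and 0.72 with anthraquinone, against 1.34, 1.22 and 1.22 with corn oil. These groups did not overlap, and the mean was 1.28-fold lower with anthraquinone (log2 change -0.36 ± 0.11, SE, limma adjusted p = 0.220). With the slide as a block the Abcc6 value was -0.32, and the gene was then no longer at an unadjusted limma p under 0.05.

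Mrp1 (Abcc1), which exports glutathione conjugates and leukotriene C4, and Mrp5 (Abcc5), which exports cyclic nucleotides, had the smallest differences of the basolateral pumps. The brightest Abcc1 probe had values of 0.58, 0.40 and 0.47 in anthraquinone replicates 1, 2 and 3, against 0.52, 0.45 and 0.37 in corn oil replicates 1, 2 and 3. Its log2 change was 0.04 (95% confidence interval -0.17 to 0.24), and the 4 Abcc1 probes ranged from 0.01 to 0.20. The sign of the brightest probe turned, to -0.012 and -0.0011, without anthraquinone replicate 1 and without corn oil replicate 3. Abcc5 had 0.46, 0.37 and 0.59 with anthraquinone, against 0.60, 0.54 and 0.53 with corn oil, a log2 change of -0.09 (95% confidence interval -0.29 to 0.12), with -0.15 ± 0.10 (SE) on its second probe. Groups overlapped on all 6 probes of these 2 genes.

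**Figure D3:**
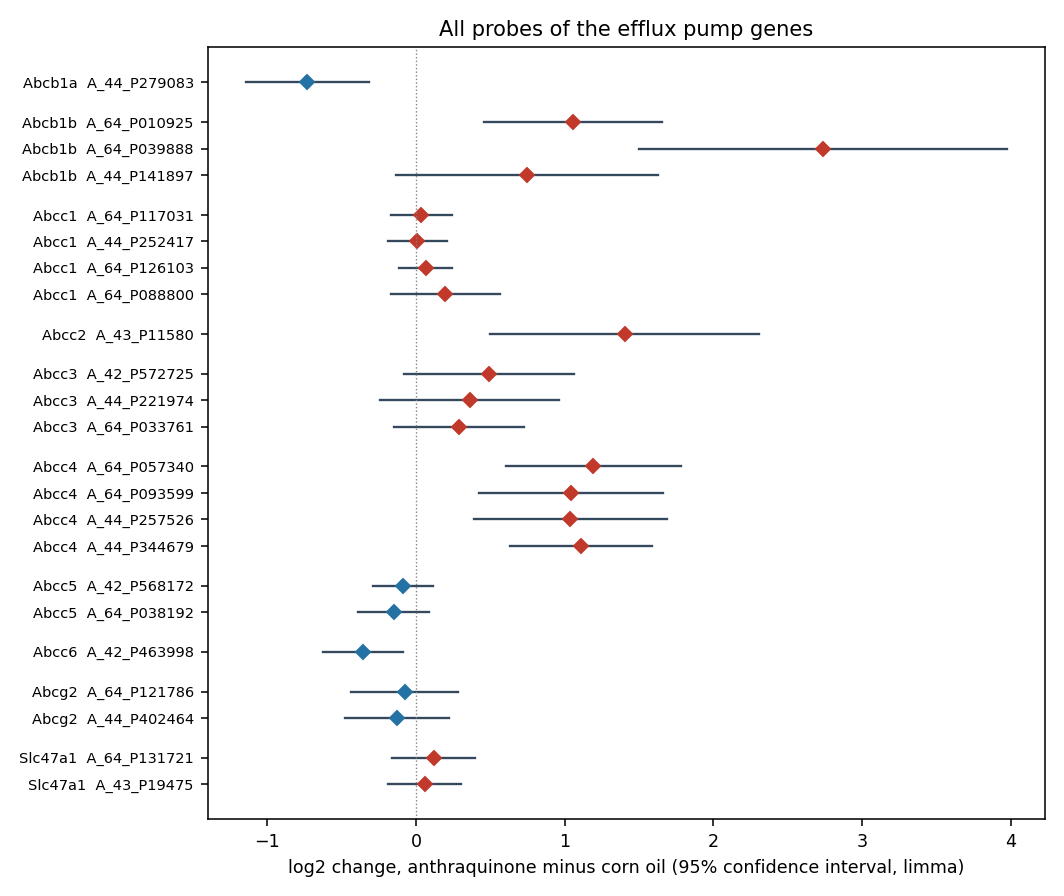
Log2 change (anthraquinone minus corn oil) of each of the 23 probes, with the 95% confidence interval from limma (n = 3 animals per group); red marks are above 0 and blue marks below 0. The 4 Abcc4 probes fall between 1.04 and 1.19, whereas the 3 Abcb1b probes spread from 0.75 to 2.74. The Abcb1a probe met the filter on dim probes through the corn oil arrays alone, so its interval is only a description.

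The remaining ABC genes were taken as a family list. Of 49 other ABC symbols in the name table, 33 had a probe and 26 were bright enough to be tested. None passed over all entries, and their median log2 change was 0.03. At an unadjusted limma p under 0.05, 2 were higher and 1 lower, against 9.47% higher and 7.65% lower over all entries. Abca1, the cholesterol efflux pump of lipoprotein formation, had values of -2.41, -2.17 and -2.18 with anthraquinone, against -2.58, -2.93 and -2.74 with corn oil (log2 change 0.50 ± 0.12, SE, limma adjusted p = 0.193). Abca7, a lipid transporter, had 1.03, 1.26 and 1.14 with anthraquinone, against 1.45, 1.83 and 1.59 with corn oil (-0.48 ± 0.12, limma adjusted p = 0.195). The groups overlapped for neither gene.

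Brush border pumps act in series with carriers on the blood-facing membrane. Of 9 such basolateral carriers 7 were tested, 0 passed, and 2 were lower and 0 higher at an unadjusted limma p under 0.05. Over all entries 7.65% were lower and 9.47% higher at that level. The organic cation transporter gene Slc22a2, which supplies the substrates of Mate1, had values of 4.64, 4.18 and 4.57 with anthraquinone, against 5.36, 5.39 and 4.76 with corn oil (log2 change -0.70 ± 0.21, SE, limma adjusted p = 0.216). Slc51a, a subunit of the steroid and bile acid transporter, had 1.77, 1.91 and 2.04 with anthraquinone, against 2.56, 2.53 and 3.13 with corn oil (-0.83 ± 0.18, limma adjusted p = 0.188). The organic anion uptake genes Slc22a6 and Slc22a8 differed by 0.10 and 0.11, with overlap in both. Slc22a3 was not tested, since neither group had it well above background on all arrays, and Slc51b is not analysed here. The list's median was -0.56, and -0.13 without corn oil replicate 1.

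Other apical carriers had log2 changes above 0 in 6 of 8 tested genes, as did 16866 of all 32663 entries. Of the 8, 0 passed, and 3 were higher and 1 lower at an unadjusted limma p under 0.05, with a median log2 change of 0.24. Over all entries 9.47% were higher and 7.65% lower at that level, which stands beside the scaffold counts below too. The organic anion transporter gene Slc17a3 had values of 4.76, 4.84 and 5.09 with anthraquinone, against 4.42, 4.33 and 4.07 with corn oil (0.62 ± 0.13, SE, limma adjusted p = 0.188). Slc17a2, of the same family, had the smallest adjusted p of this list (0.53 ± 0.09, limma adjusted p = 0.153), and Slc22a5, the carnitine transporter gene, the smallest among those lower (-0.25 ± 0.09, limma adjusted p = 0.246). Slc47a2, the paralog of Slc47a1, was too dim to be tested. Of the 8 genes of the apical scaffold that anchors Mrp2, Mrp4 and other carriers, all were tested and 0 passed. None was higher and 1 was lower (Msn, without overlap) at an unadjusted limma p under 0.05, and 4 log2 changes were above 0 and 4 below it, with a median of 0.00. The scaffold genes Pdzk1 and Nherf1 differed by 0.09 and -0.08, with overlap, the scaffold gene Nherf2 by 0.19 ± 0.10 (SE, limma adjusted p = 0.393) and the linker gene Msn by -0.30 ± 0.09 (limma adjusted p = 0.211).

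Transcription factors and sensors that act on pump genes were tested in 18 of 18 cases, and 0 passed. At an unadjusted limma p under 0.05, 2 were higher and 1 lower, against 9.47% higher and 7.65% lower over all entries. The median of the 18 was 0.04. The bile acid receptor gene Nr1h4, known to act on Abcc2, had values of 5.26, 5.43 and 5.31 with anthraquinone, against 5.07, 4.91 and 4.86 with corn oil (0.39 ± 0.09, SE, limma adjusted p = 0.191). The transcripts of Nrf2 (Nfe2l2) and its inhibitor Keap1 differed by 0.13 and -0.02, with overlap, and that of the xenobiotic sensor Ahr by -0.25 ± 0.10 (limma adjusted p = 0.279). Among 12 other targets of Nrf2, 2 passed as higher in the test over all entries, where 0.0276% of all entries passed. At an unadjusted limma p under 0.05, 8 were higher and 0 lower, against the same 9.47% and 7.65%. The median of these 12 was 0.56. The quinone reductase gene Nqo1 had values of -0.77, -0.46 and -0.72 with anthraquinone, against -2.52, -2.59 and -2.29 with corn oil (1.82 ± 0.12, limma adjusted p = 0.0311). The heme oxygenase gene Hmox1 had 0.80, 0.52 and 0.61 with anthraquinone, against -1.78, -1.30 and -1.40 with corn oil (2.14 ± 0.15, limma adjusted p = 0.0311). Both missed the threshold with 1 array left out (limma adjusted p of 0.0609 to 0.175 for Nqo1 and 0.0608 to 0.154 for Hmox1), except Nqo1 without corn oil replicate 3 (0.0310), while their log2 changes stayed within 1.72 to 1.91 and 1.99 to 2.23. The glutathione synthesis genes Gclc and Gclm had -0.33 ± 0.31 and -0.45 ± 0.45, with overlap.

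**Figure D4:**
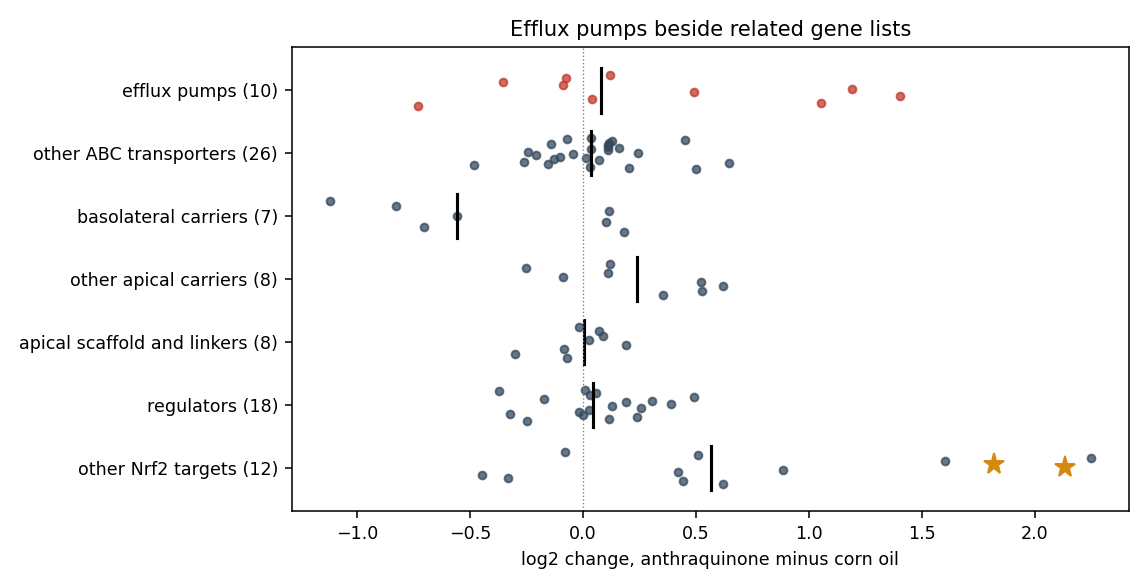
Log2 change (anthraquinone minus corn oil) of each tested gene on its brightest probe, by list, with the number of genes in brackets, a vertical bar at the list's median and stars for genes past the test over all entries. The pumps spread from -0.73 (Abcb1a) to 1.40 around a median of 0.08, and the stars are Nqo1 and Hmox1 among the Nrf2 targets. Abcb1a met the filter on dim probes through the corn oil arrays alone, so its point is only a description.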

How the data were processed

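Per the file headers, the scanner files hold linear spot intensities from Agilent Feature Extraction 10.7.1.1. That software had already taken background and spatial trend out of the processed intensity, which was deposited without scaling between arrays. The authors' deposited value table was found to be the same intensity divided by each array's 75th percentile (90.7 to 97.0% of probes within 0.01 log2 of 1 constant per array). Its column medians were 0.109, 0.111 and 0.110 for anthraquinone replicates 1, 2 and 3 and 0.109, 0.113 and 0.114 for corn oil replicates 1, 2 and 3.

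Spots with outlier flags were left out. None was a pump spot, and no pump spot was saturated. A probe was tested if every array of 1 group or of both read it well above background (41310 probes). Probes were named through the RefSeq table of GRCr8, which gave 27460 probes a symbol. The array design names another build, so probes were matched by transcript accession and not by that table's gene coordinates. The coordinates served only for the promoter windows, the outer gene ends and the gene order around Abcb1a. The probe with the highest mean over all 6 arrays stood for its gene. Groups and replicate numbers came from the sample titles. Under R 4.3.3, lmFit and eBayes of limma 3.58.1 gave the tests, with Benjamini-Hochberg adjustment over the whole table at 0.05, once by gene entry and once by probe. The procedure was tested on simulated data.

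The members, the gene lists and the tests were chosen with earlier results of these data known. The text names all 10 pumps, Abcb4, Nqo1 and Hmox1. From each list it names the members past the test and the member with the smallest p in each direction, except for 1 gene that is not reported here. Slc22a2, Slc22a6, Slc22a8, Slc17a3, Slc7a13, Slc5a12, Pdzk1, Nherf1, Nfe2l2, Keap1, Gclm and the example markers were named after their values were seen. Nothing but the series' design text says that the 3 animals per group are separate biological replicates. The limma p-values rest on the spread between these animals, moderated by the spread over all entries, and so few arrays limit the precision. In the corn oil group this spread includes any difference between slides. Alternatives covered the scaling, the background correction, the value table, the filter, the combining of probes, the variance model, blocks, array weights and each array left out. Probe sequences were not used here, so cross-reading of Abcb1a and Abcb1b was not tested.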

Additional observations from a re-analysis of the deposited data

How the results depend on the processing

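The results were recomputed under 17 other settings. No pump gene passed in any of them except Abcc4 without the filter on dim probes, where 6611 entries passed in all. There 1 pump gene, 3 pump probes and 7 genes of the companion lists passed, against 0, 0 and 2 in the reported fit. The 6611 entries stand against 9 in the reported fit, and the count over all probes is not given here. These member counts are therefore descriptions and no result about the pumps. The 3 probes were A_44_P344679 and A_64_P057340 of Abcc4 and A_64_P039888 of Abcb1b (limma adjusted p = 0.0189, 0.0307 and 0.0214). Over all settings 1 to 2 pumps were lower at an unadjusted limma p under 0.05. The count was 1 with the normexp correction, with all arrays required to be well above background (Abcb1a was then not tested, so its difference from Abcb1b has no value) and with the slide as a block. The difference of changes between Abcb1a and Abcb1b was -1.08 with the normexp correction, which used median spot signals since the files hold no means, -2.25 when the probes of a gene were averaged, and -1.96 to -1.66 with 1 array left out. Among the companion genes 0 passed with the slide as a block, 0 with the replicate number as a block, and 0 to 1 with 1 array left out. The replicate block changed no call of a pump, and moved the count over all entries to 1, against 9. Same-numbered animals of the groups did not deviate together (correlations across genes of 0.03, -0.06 and -0.01), and no anthraquinone animal correlated best with its own number. The count over all entries was 16 with the normexp correction, 81 with a trended robust variance, 2 with the slide as a block and 1 to 25 with 1 array left out (25 without corn oil replicate 3). Among the pumps, signs turned only for probes of Abcc1, Abcg2 and Slc47a1. With 1 array left out Abcc1 (its brightest probe A_64_P117031) ranged from -0.012 to 0.080 and its probe A_44_P252417 from -0.032 to 0.054, Abcg2 (probe A_64_P121786) from -0.19 to 0.063 and Slc47a1 probe A_43_P19475 from -0.036 to 0.10. With the normexp correction A_44_P252417 was -0.034, and after quantile normalization A_43_P19475 was -0.018. The slide as a block gives the values without corn oil replicate 1, since that array was alone on its slide. The median of all entries moved by under 0.1 under each scaling. The cause of these shifts was not tested.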
